A study of Mus musculus with 8 samples.

Results

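Platelets are anucleate fragments of megakaryocytes, the large polyploid cells of the bone marrow, and carry RNA that their parent cell packed into them. The genes described here are 10 that megakaryocytes and platelets are known for: Gp1ba, Gp1bb, Gp9 and Gp5, Itga2b and Itgb3, Pf4 and Ppbp, Tubb1, and Slc6a4. They were found by their mouse Ensembl identifiers, 10 of 52636 genes in the tables, and were chosen by their week, genotype and surgery differences in these same libraries. Those differences are therefore a description. Where calls on the 10 are printed, they stand beside the share of all genes called and nothing is read from them.

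In the study, articular cartilage from the knee of C57BL/6 male mice was taken after destabilization of the medial meniscus (DMM), an operation that leads to osteoarthritis, or after a sham operation. Mice lacked the osteoclast-associated receptor OSCAR in the whole body (Oscar-/-) or were wild type (WT), and were killed at 4 or 2 weeks after surgery. The 8 libraries were Oscar-/- DMM, Oscar-/- sham, WT DMM and WT sham at 4 weeks, and the same 4 at 2 weeks, with 1 library per condition and each from RNA of 10 combined cartilages. The labels give an age of 10 weeks, and the study's methods give DMM surgery at 10 to 12 weeks of age. Which time point the label's age refers to is unclear. No difference between conditions has a replicate of its own. Libraries held 13189181 to 18533609 expected counts. Oscar had 0 counts in all 4 Oscar-/- libraries and 42 to 118 in the WT libraries. The tissue label is cartilage, and chondrocyte genes were present (Col2a1, 59.5 to 209 TPM, transcripts counted per length and scaled to a fixed total), but hemoglobin genes took 26.5 to 37.7% of all TPM, so blood and marrow RNA was in every library. The 4 libraries of 2 weeks carry the same sequencing lane code, those of WT at 4 weeks another and those of Oscar-/- at 4 weeks yet another. Week and lane can therefore not be told apart, nor can genotype and lane at 4 weeks, whereas the DMM and sham libraries of a genotype and week share a lane code.

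The products of these genes work in sequence when a vessel is injured. The GPIb-IX-V complex catches von Willebrand factor on exposed collagen, integrin alphaIIb/beta3 then binds fibrinogen and links platelets to each other, and alpha granules release chemokines that act on leukocytes. A coiled microtubule band made from beta1-tubulin holds the disc shape, and a plasma membrane transporter takes up serotonin for storage in dense granules. Transcription factors of the GATA, ETS and NF-E2 families are known to drive megakaryocyte genes.

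The stretches before the start sites of 4 of the genes are printed to set the genes with the highest week differences (Slc6a4 and Tubb1) beside the gene with the most motif matches (Gp1ba) and the one with the lowest week difference among those with a sequence (Pf4). They are the 250 bases before the RefSeq start on GRCm38.p6, 5′ to 3′ on the gene's strand, with GATAA or its reverse TTATC and GGAAG or its reverse CTTCC in capitals. Their positions are chr11:76998347-76998596 (plus strand), chr2:174450345-174450594 (plus strand), chr11:70638872-70639121 (plus strand) and chr5:90772185-90772434 (plus strand).
Slc6a4: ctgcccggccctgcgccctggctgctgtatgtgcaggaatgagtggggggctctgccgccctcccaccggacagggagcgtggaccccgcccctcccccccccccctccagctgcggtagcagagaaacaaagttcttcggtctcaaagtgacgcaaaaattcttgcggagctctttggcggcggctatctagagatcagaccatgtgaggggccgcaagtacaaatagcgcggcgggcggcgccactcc
Tubb1: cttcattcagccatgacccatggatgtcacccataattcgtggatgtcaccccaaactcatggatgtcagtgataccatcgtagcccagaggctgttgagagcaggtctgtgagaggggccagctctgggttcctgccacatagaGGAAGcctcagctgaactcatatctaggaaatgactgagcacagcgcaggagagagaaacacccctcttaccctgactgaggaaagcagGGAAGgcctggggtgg
Gp1ba: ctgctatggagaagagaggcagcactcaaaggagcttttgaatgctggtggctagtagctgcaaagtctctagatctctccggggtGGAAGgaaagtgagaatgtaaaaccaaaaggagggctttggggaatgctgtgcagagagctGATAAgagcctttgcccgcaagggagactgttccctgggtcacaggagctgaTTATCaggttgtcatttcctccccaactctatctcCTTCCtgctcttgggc
Pf4: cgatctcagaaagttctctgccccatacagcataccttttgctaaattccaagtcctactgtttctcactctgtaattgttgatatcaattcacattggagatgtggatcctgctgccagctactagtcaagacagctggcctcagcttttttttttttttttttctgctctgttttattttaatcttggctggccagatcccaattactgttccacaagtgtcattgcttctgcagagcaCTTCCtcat

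A window of 250 bases before to 50 bases after the start was searched on both strands, and 9 of the 10 genes had one. Itgb3 was not analysed for this. The GATA letters stood in 4 of the 9 windows (Gp1ba, Gp9, Gp5 and Pf4), against 25.4% of 32851 RefSeq windows of the same length. Gp1ba had matches 103 and 51 bases before its start and Gp5 93 and 77 bases before, while the match of Pf4 lay after the start and is outside the stretch printed. The ETS letters stood in 8 of 9 windows, every one but that of Slc6a4, against 71.4% of all windows, and both motifs stood in 4 of 9, against 17.2%. TGACTCA or its reverse TGAGTCA, letters bound by NF-E2, stood in 0 of 9 windows, against 5.20% of all. No GATA match shared bases with an ETS match in these windows, and a match is a description of the letters and not a binding site.

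All 10 genes were higher in every 4-week library than in any 2-week library. In the fit over the 8 libraries with week, surgery and genotype as terms, the log2 difference between 4 and 2 weeks had a median of 2.33 over the 10 genes and a range of 1.44 to 3.79, against a median of -0.02 over the 12538 protein-coding genes tested. At an adjusted p under 0.05 by edgeR's quasi-likelihood test 10 of 10 were called higher at 4 weeks, beside 5.58% of all genes called higher and 2.35% lower. In TPM, all 4 libraries of 4 weeks stood above all 4 of 2 weeks for 10 of 10 genes, beside 27.9% of all genes. The genes ranked 2 (Slc6a4) to 66 (Itgb3) of 12538 by the difference, counted from the highest. In bulk RNA, more cells or platelets of a type and more RNA per cell cannot be told apart.

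**Figure D1:**
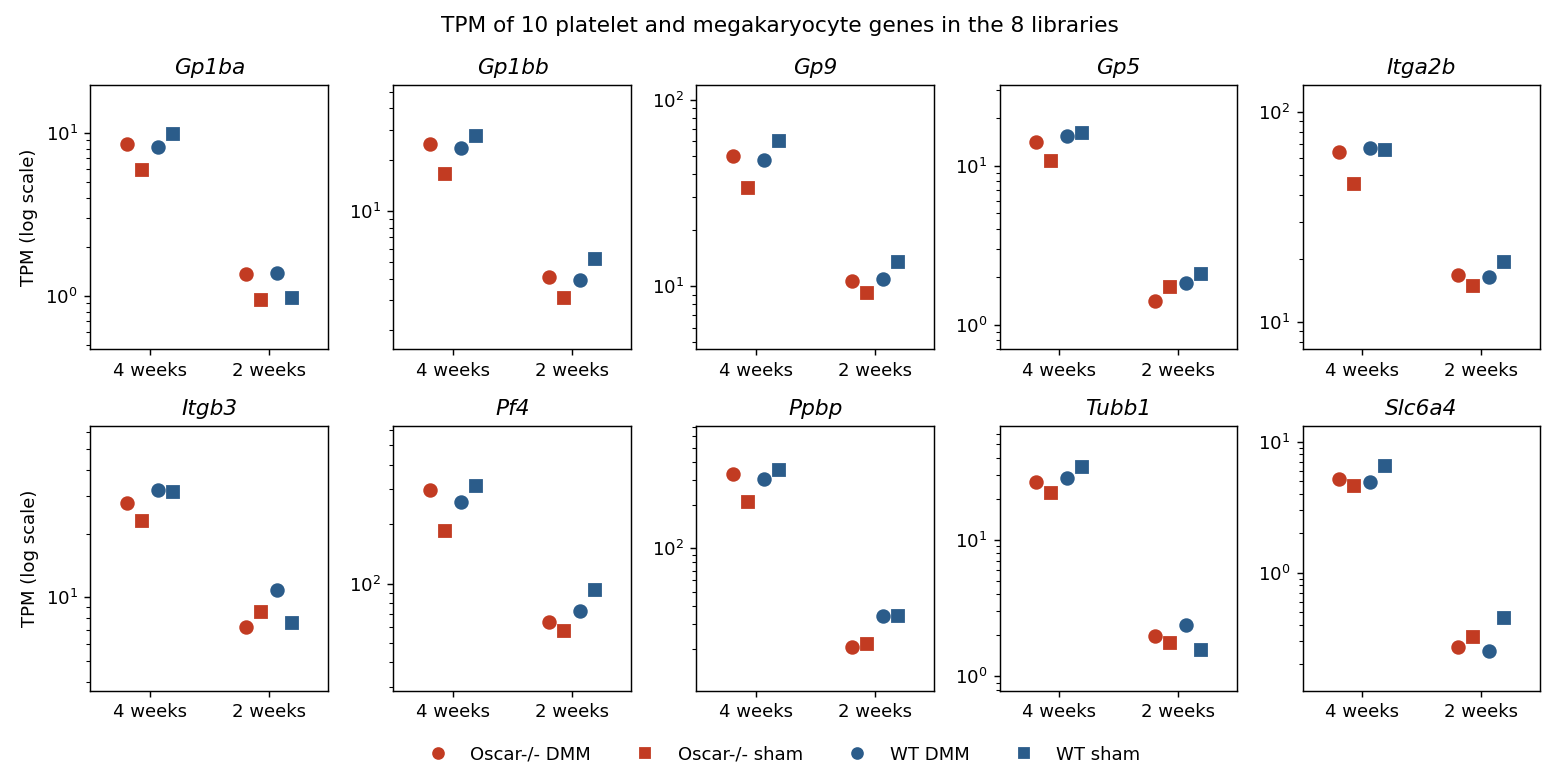
TPM of each of the 10 genes on log axes that differ between panels, with 4 weeks left of 2 weeks and 1 point per library. In each panel every 4-week point lies above every 2-week point, and at 4 weeks the Oscar-/- sham library (red square) is the lowest.

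The subunits of the von Willebrand factor receptor shared this pattern. Gp1ba (chromosome 11, 70639122 to 70642036 on GRCm38) encodes the chain that binds von Willebrand factor. It had 8.59, 5.93, 8.23 and 9.84 TPM in the Oscar-/- DMM, Oscar-/- sham, WT DMM and WT sham libraries of 4 weeks, against 1.36, 0.94, 1.38 and 0.97 TPM in the same order at 2 weeks. The lowest 4-week library was 4.30 times the highest 2-week library, and the fitted log2 difference was 2.52 (SE 0.17). Gp5 (chromosome 16, 30307685 to 30310779), whose product joins the complex and is cut by thrombin, had 14.0, 10.6, 15.4 and 16.1 TPM at 4 weeks, against 1.40, 1.72, 1.84 and 2.09 TPM at 2 weeks. The groups of libraries lay further apart for Gp5 than for the other subunits, with a log2 difference of 2.69 (SE 0.17). Gp9 (chromosome 6, 87778072 to 87779768), the small subunit needed for surface expression, was the most abundant of the 4 per length, with 50.2, 33.9, 47.8 and 60.1 TPM at 4 weeks, against 10.7, 9.18, 10.9 and 13.5 TPM at 2 weeks. Its log2 difference was 1.84 (SE 0.20).

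Gp1bb (chromosome 16, 18620317 to 18622403), the chain linked to GPIb alpha by a disulfide bond, had 24.8, 16.6, 23.4 and 27.5 TPM at 4 weeks, against 4.10, 3.09, 3.97 and 5.25 TPM at 2 weeks, and a log2 difference of 2.14 (SE 0.23). The gene overlaps Sept5 on the same strand, so that some reads fit both and were divided between them by the authors' counting. Sept5 had 34.5 to 46.2 TPM at 4 weeks and 27.9 to 34.8 TPM at 2 weeks, and the value of Gp1bb is uncertain to that extent. Within a library Gp9 was 2.03 to 2.19 times Gp1bb at 4 weeks and 2.57 to 2.97 times Gp1bb at 2 weeks, so the subunits differed in their distance between weeks.

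The integrin subunits of the fibrinogen receptor had smaller distances. Itga2b (chromosome 11, 102453297 to 102470122), which encodes alphaIIb and is restricted to the megakaryocyte lineage and early progenitors, had 64.1, 45.2, 67.1 and 65.9 TPM at 4 weeks, against 16.7, 14.8, 16.4 and 19.3 TPM at 2 weeks. The 4-week libraries other than Oscar-/- sham lay close together, and that library lay below them. The log2 difference was 1.94 (SE 0.13). Itgb3 (chromosome 11, 104608000 to 104670476) encodes beta3, which also pairs with alphaV in osteoclasts and other cells. It had 27.8, 22.9, 32.1 and 31.5 TPM at 4 weeks, against 7.26, 8.53, 10.9 and 7.59 TPM at 2 weeks, and its log2 difference of 1.44 (SE 0.10) was the lowest of the 10.

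Itgb3 followed its partner less closely at 2 weeks. The ratio of Itgb3 to Itga2b in TPM was 0.43, 0.51, 0.48 and 0.48 in the 4-week libraries, against 0.43, 0.58, 0.66 and 0.39 at 2 weeks. The highest 2-week value was in WT DMM, the library where the osteoclast list (Acp5, Ctsk and 5 others) summed to 1307 TPM, the highest of 2 weeks, and the lowest was in WT sham, where that list summed to 749 TPM. Between the Oscar-/- libraries of 2 weeks the order was the reverse, with 924 TPM after DMM (ratio 0.43) and 853 TPM after sham (ratio 0.58). At 4 weeks the list was highest in WT DMM too, with 1554 TPM, and the ratio there was not. A part of osteoclast RNA in Itgb3 was not tested.

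The alpha-granule chemokines were the most abundant of the 10 per length. Ppbp (chromosome 5, 90768518 to 90770063), the precursor of the neutrophil-attracting peptide NAP-2 in humans, had 329, 209, 303 and 353 TPM at 4 weeks, against 20.5, 21.6, 33.6 and 33.8 TPM at 2 weeks. Pf4 (chromosome 5, 90772435 to 90773383), platelet factor 4, a heparin-binding chemokine, had 299, 185, 259 and 313 TPM at 4 weeks, against 63.9, 57.4, 73.0 and 93.3 TPM at 2 weeks. The neighbouring genes changed places: Ppbp was above Pf4 in each of the 4 libraries of 4 weeks and below it in each of the 4 of 2 weeks. The log2 difference was 3.19 (SE 0.21) for Ppbp and 1.69 (SE 0.21) for Pf4.

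The libraries of the 2 time points lay farthest apart for Tubb1 and Slc6a4. Tubb1 (chromosome 2, 174450695 to 174457882), the beta1-tubulin of the marginal band, had 26.7, 22.1, 28.6 and 34.0 TPM at 4 weeks, against 1.97, 1.74, 2.37 and 1.57 TPM at 2 weeks. WT sham was the highest library at 4 weeks and the lowest at 2 weeks, and the log2 difference was 3.59 (SE 0.14), a fold of 12.0. Slc6a4 (chromosome 11, 76998603 to 77032340), the serotonin transporter, had 5.17, 4.56, 4.92 and 6.58 TPM at 4 weeks, against 0.27, 0.32, 0.25 and 0.45 TPM at 2 weeks. Its 2-week values rest on 10 to 25 counts per library, the fewest of the 10 genes, so counting limits them most. The log2 difference was 3.79 (SE 0.23), a fold of 13.8.

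By mean TPM over the 4 libraries of 4 weeks, which differ in genotype and surgery, the order was Ppbp (298 ± 62.8, SD, n = 4), Pf4 (264 ± 57.5), Itga2b (60.6 ± 10.3), Gp9 (48.0 ± 10.8), Itgb3 (28.6 ± 4.24), Tubb1 (27.8 ± 4.94), Gp1bb (23.1 ± 4.62), Gp5 (14.0 ± 2.40), Gp1ba (8.15 ± 1.63) and Slc6a4 (5.31 ± 0.88). Neighbours in this order whose ranges overlapped were Ppbp and Pf4, Itga2b and Gp9, Itgb3 and Tubb1, Tubb1 and Gp1bb, and Gp1ba and Slc6a4. At 2 weeks Pf4 led with 71.9 ± 15.6 TPM and Ppbp followed with 27.4 ± 7.30 TPM, Itga2b had 16.8 ± 1.87, Gp9 11.1 ± 1.79 and Itgb3 8.56 ± 1.62 TPM (SD, n = 4 each). Tubb1 stood below Gp1bb at 2 weeks, with 1.91 ± 0.35 against 4.10 ± 0.89 TPM. Summed, the 10 genes made 849, 556, 790 and 917 TPM in Oscar-/- DMM, Oscar-/- sham, WT DMM and WT sham at 4 weeks, against 128, 119, 155 and 178 TPM at 2 weeks.

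Setting each gene against Pf4 of the same library removes scaling from the comparison and shows unequal change among the genes. Relative to Pf4, Slc6a4 was 4.54 times as high at 4 weeks as at 2 weeks, Tubb1 3.87 times, Ppbp 2.98 times, Gp5 2.16 times, Gp1ba 1.85 times and Gp1bb 1.53 times. The 4-week and 2-week libraries did not overlap for these 6 genes. The share of all genes separated in this way was not computed, so nothing is read from the 6. They overlapped for Gp9 (1.17 times), Itga2b (0.98 times) and Itgb3 (0.90 times). The ratio of Ppbp to Pf4 was 1.10, 1.13, 1.17 and 1.13 at 4 weeks, against 0.32, 0.38, 0.46 and 0.36 at 2 weeks, so it varied less among genotypes and operations than between weeks.

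**Figure D2:**
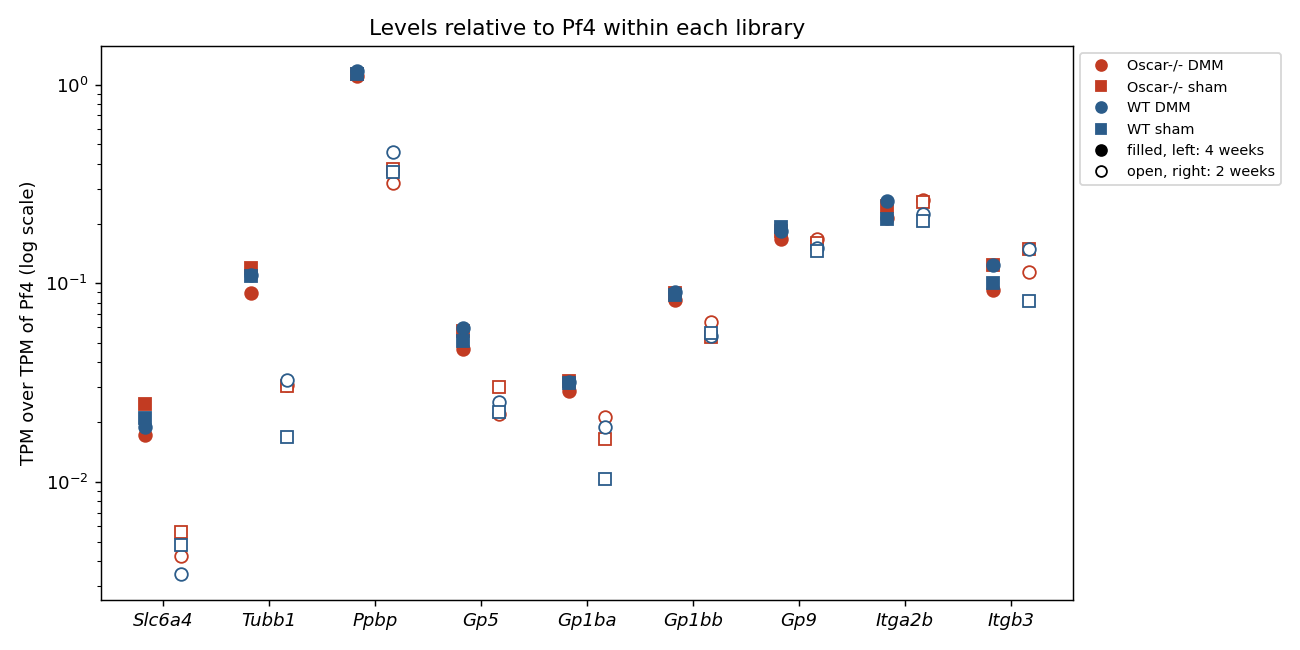
TPM of each gene divided by TPM of Pf4 in the same library, on a log axis, with 4 weeks filled on the left and 2 weeks open on the right. Slc6a4, Tubb1, Ppbp, Gp5, Gp1ba and Gp1bb are separated by week, while Gp9, Itga2b and Itgb3 overlap.

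Most of 40 other platelet and megakaryocyte genes, listed with earlier results of these data known, were also higher at 4 weeks. By edgeR's quasi-likelihood test with Benjamini-Hochberg adjustment over 12538 genes, 29 of 40 rose at 4 weeks and 0 fell. The shares of all genes were 5.58% higher and 2.35% lower. An unadjusted p under 0.05 was found for 31 of the 40, beside 3409 of all 12538 genes. DESeq2 called 28 higher and 0 lower, beside 5.16% and 2.98% of all genes. Limma on log2(TPM + 1) called 34 higher and 0 lower. On that scale it called 21.0% of all genes higher, and the median of all genes was 0.23. The median log2 difference of the 40 genes was 0.64, below that of the 10. These p-values measure the spread left in 8 single libraries after the additive terms, and week cannot be told apart from lane.

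Among receptors and signaling genes 13 of 14 rose. Gp6, the collagen receptor, had 3.30 to 6.02 TPM at 4 weeks, against 0.19 to 0.38 TPM at 2 weeks (log2 difference 3.18, SE 0.26, edgeR adjusted p = 0.000259). Treml1, an alpha-granule membrane protein that moves to the surface on activation, had 17.8 to 32.4 TPM at 4 weeks, against 2.14 to 4.74 TPM at 2 weeks (log2 difference 2.69, SE 0.22, adjusted p = 0.000288). P2rx1, an ATP-gated channel of platelets, differed by 1.29 on the log2 scale (SE 0.13, adjusted p = 0.000747). In none of these did a 2-week library reach a 4-week library. Pear1, a receptor for platelet contacts, did not pass the test (log2 difference 0.39, adjusted p = 0.0564).

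Of 9 genes for granule cargo and granule formation, 8 rose. Mmrn1, which encodes multimerin, a carrier of factor V, had 4.04 to 5.66 TPM at 4 weeks, against 1.17 to 2.07 TPM at 2 weeks (log2 difference 1.44, SE 0.13, adjusted p = 0.000447). Vwf, which endothelial cells also make and which is the ligand of the GPIb-IX-V complex, had 16.3 to 24.4 TPM at 4 weeks, against 8.30 to 9.55 TPM at 2 weeks (log2 difference 0.97, SE 0.15, adjusted p = 0.00708). F13a1, the transglutaminase subunit that macrophages also make, did not pass (log2 difference -0.18, adjusted p = 0.232).

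All 3 eicosanoid enzymes rose, among them Alox12, the platelet 12-lipoxygenase, with 16.0 to 23.4 TPM at 4 weeks, against 3.31 to 6.20 TPM at 2 weeks (log2 difference 2.02, SE 0.18, adjusted p = 0.000447). Of 6 cytoskeleton and membrane genes 4 rose, led by Myl9, a myosin regulatory light chain, with 31.9 to 49.8 TPM at 4 weeks, against 7.66 to 16.1 TPM at 2 weeks (log2 difference 1.67, SE 0.14, adjusted p = 0.000255). Tuba4a and Gng11 did not pass, with log2 differences of 0.06 and 0.02.

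Of the 8 transcription factors 1 rose. Meis1, a homeobox factor of stem cells and megakaryocytes, had 1.98 to 2.78 TPM at 4 weeks, against 1.04 to 1.39 TPM at 2 weeks (log2 difference 0.65, SE 0.16, adjusted p = 0.0362). Gata1, shared with the red cell lineage, had a log2 difference of 0.04 (SE 0.12, adjusted p = 0.872), Nfe2 0.15 (SE 0.11, adjusted p = 0.421) and Fli1 0.09 (SE 0.06, adjusted p = 0.420). The estimates of the 7 that did not pass lay between 0.02 and 0.18. Limma on log2(TPM + 1) called 4 of the 8, on a scale on which the median of all genes was itself at 0.23, and DESeq2 called 0.

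**Figure D3:**
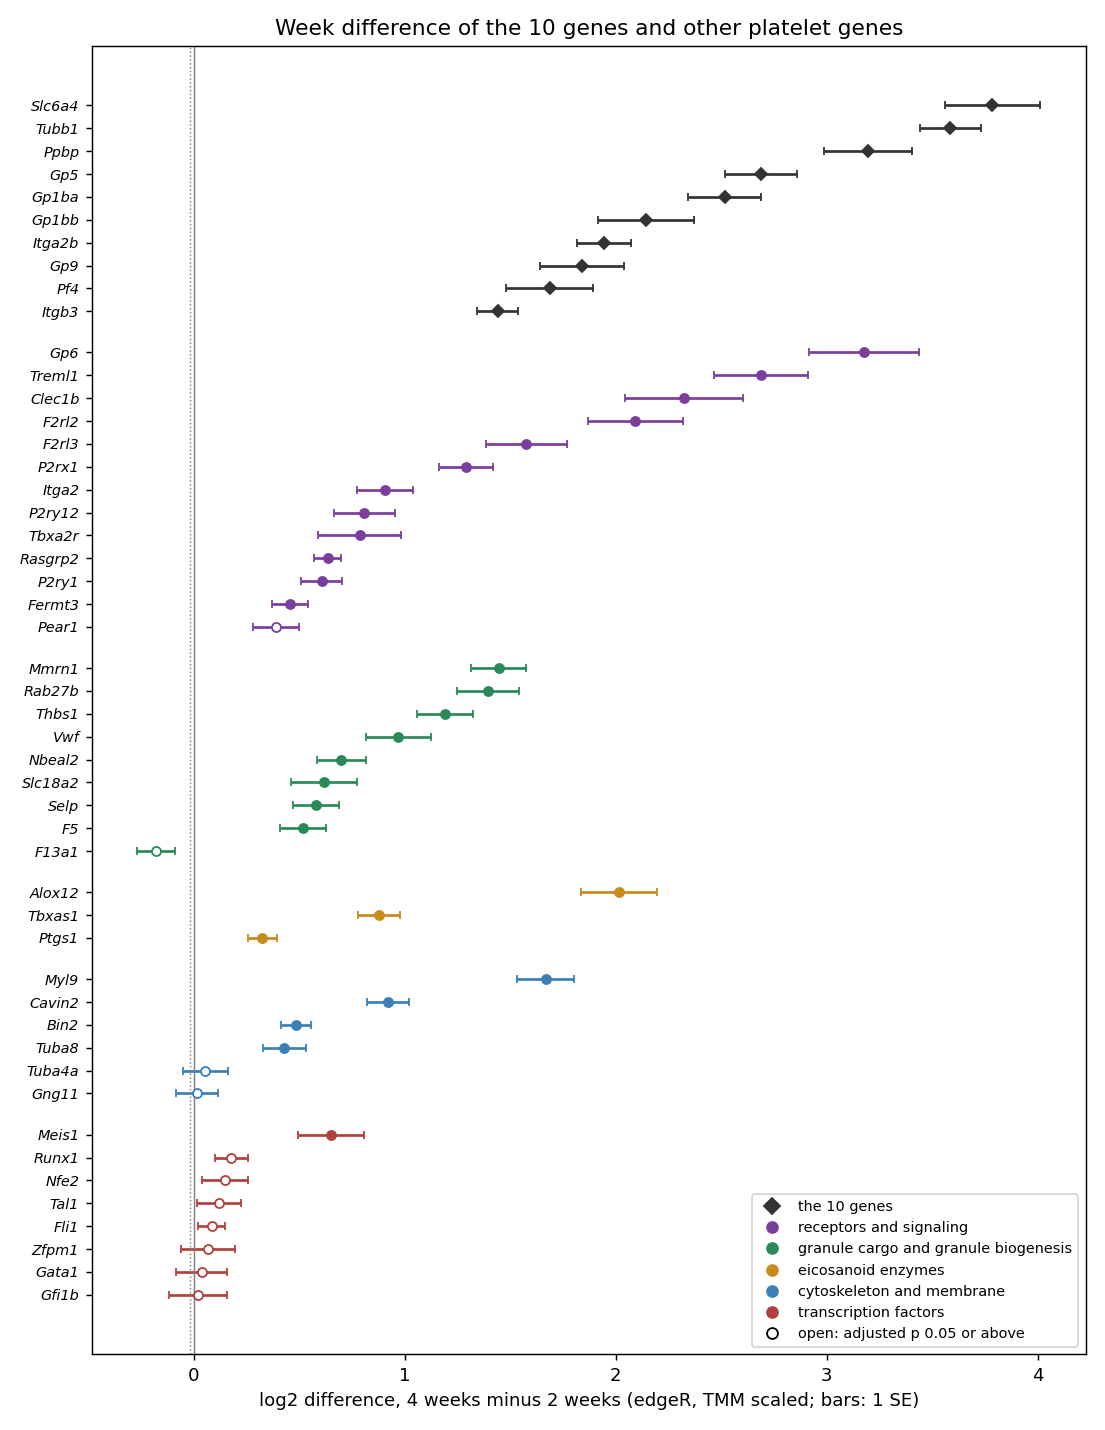
Log2 difference between 4 and 2 weeks, with 1 SE, for the 10 genes (diamonds) and other platelet genes by group (circles, those reported here), open where the adjusted p was 0.05 or above. The dotted line is the median of all genes. The transcription factors other than Meis1 (0.65) lie near it, while the 10 genes lie between 1.44 and 3.79.

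Other cell types were read from marker lists. For the erythroid list 0 of 11 genes passed by week in edgeR (1 with unadjusted p under 0.05, 0 in DESeq2 and 2 higher in limma on log2(TPM + 1)), with a median log2 difference of -0.18, and the list summed to 266678 to 372226 TPM at 4 weeks and 308869 to 378751 TPM at 2 weeks. For the neutrophil list 0 of 10 passed in edgeR (1 unadjusted, 1 higher in DESeq2 and 6 higher in limma), with a median of 0.07. Among 8 endothelial genes Vwf rose and Emcn, a sinusoid and capillary sialomucin, fell (log2 difference -0.53), and the other 6 did not pass, with limma calling 1 higher and 0 lower. The list's sum was 78.9 to 117 TPM at 4 weeks and 51.1 to 103 TPM at 2 weeks, and Pecam1, Cdh5 and Kdr had negative estimates. In the stem and progenitor list edgeR and DESeq2 called 0 of 6 higher and 1 lower (Cd34 in edgeR), while limma called 1 higher and 0 lower. In the macrophage list C1qb rose, 1 of 6 in edgeR and DESeq2 and 2 in limma. In the mast cell and basophil list Fcer1a, the IgE receptor chain, rose, 1 of 4 tested in edgeR and DESeq2 and 2 in limma, with the mast cell proteases Mcpt4, Tpsb2 and Cma1 at 0.37 TPM or less in every library. For 9 chondrocyte genes 0 passed (3 unadjusted, 1 lower in DESeq2 and 1 lower in limma), and for 6 osteoclast genes 0 passed (1 unadjusted, 1 higher in DESeq2 and 1 in limma). The mean fragment length was 146 to 153 bases in the 4-week libraries and 173 to 177 bases in the 2-week libraries, and its part in the week difference was not tested.

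**Figure D4:**
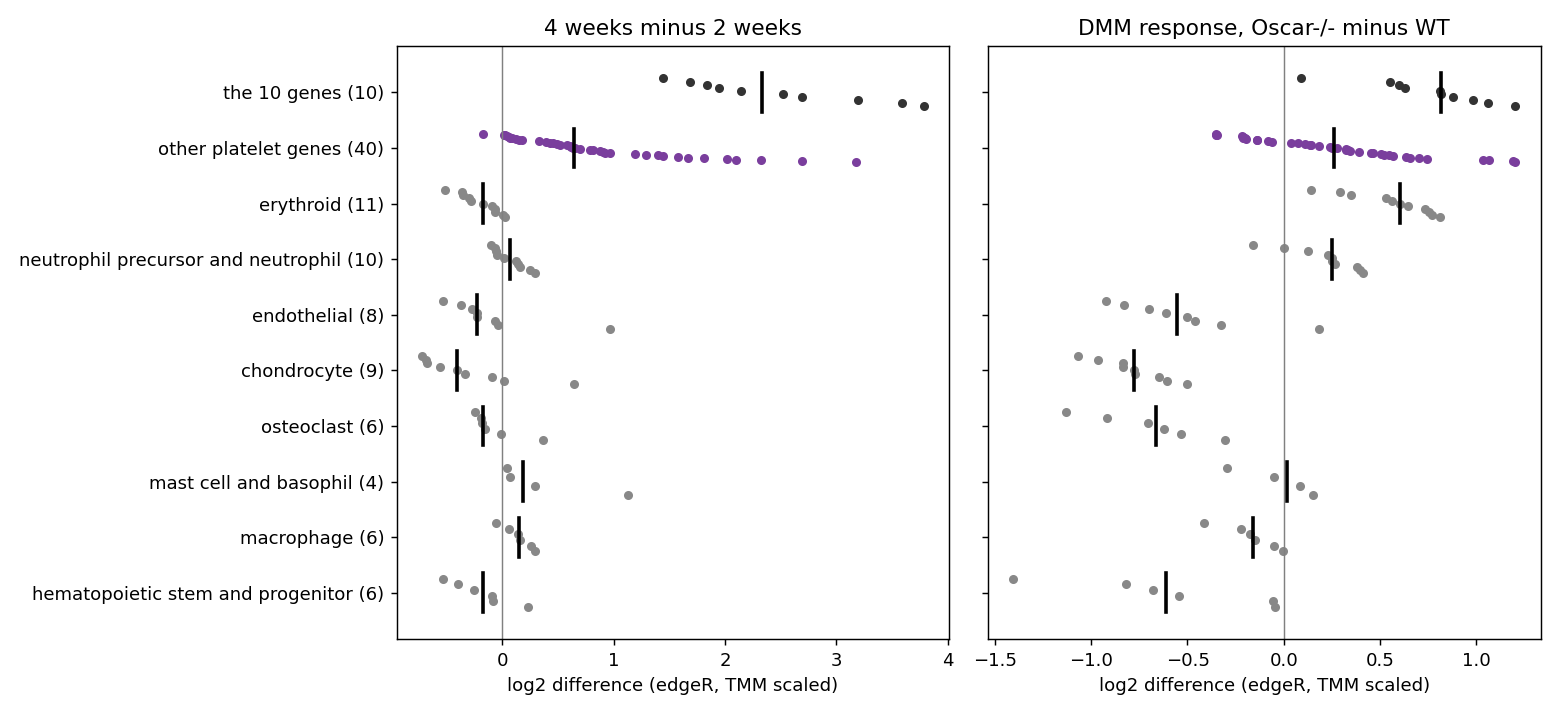
Log2 differences of single genes (points) and their median (bar) by list, for 4 weeks minus 2 weeks on the left and for the DMM response of Oscar-/- minus that of WT on the right, with the number of genes tested in brackets. By week the platelet lists are shifted to the right (medians 2.33 and 0.64) and the erythroid, neutrophil and endothelial medians lie at -0.18, 0.07 and -0.23.

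The genotype difference was smaller. Over both weeks and operations the fitted log2 difference of Oscar-/- minus WT was negative for 10 of 10 genes, from -0.41 (Ppbp) to -0.13 (Slc6a4), with a median of -0.25, against 0.01 for all genes. By edgeR 0 of 10 were called, with 1 at an unadjusted p under 0.05, beside 0.0399% of all genes called lower and 0.00798% higher, and DESeq2 and limma called 0. Without WT sham at 4 weeks 8 of 10 were negative (range -0.41 to 0.06, Gp1ba and Tubb1 positive), and so were 8 of 10 without Oscar-/- sham at 4 weeks (-0.28 to 0.10, Gp1ba and Slc6a4 positive). Without Oscar-/- DMM at 4 weeks 1 was called lower, Ppbp. Of the 40 other platelet genes edgeR, DESeq2 and limma called 0 in either direction (2 at unadjusted p under 0.05 by edgeR).

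Single libraries showed where that difference lay. Among sham joints at 4 weeks, Oscar-/- was below WT in TPM for 10 of 10 genes, with log2 ratios from -0.83 (Gp9) to -0.46 (Itgb3) and a median of -0.68, while the median of all genes was -0.05. After DMM at 4 weeks 6 of 10 were higher in Oscar-/- and the median ratio was 0.07, but all genes had a median of -0.27 there, and on the TMM scale, which centres most genes at no change, 10 of 10 were higher with a median of 0.33. Among sham joints at 2 weeks 8 of 10 were lower in Oscar-/- in TPM (median -0.44) and 10 of 10 on the TMM scale (median -0.69). Of all genes 82.8% were higher in Oscar-/- in TPM there (median 0.28). After DMM at 2 weeks 7 of 10 were lower in TPM (median -0.11) and 5 of 10 on the TMM scale (median -0.05). In that comparison 29.6% of all genes were higher in TPM (median -0.13), so the 10 genes lay close to all genes. The median difference was thus larger in sham joints than after DMM at both weeks, and each of these comparisons is 1 library against 1.

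Surgery over both genotypes and weeks gave log2 differences of DMM minus sham from -0.18 (Slc6a4) to 0.24 (Gp1ba), with a median of 0.06. None of the 10 was called by edgeR, with 0 at an unadjusted p under 0.05, beside 0 of all genes in either direction, and DESeq2 and limma called 0. Of the 40 other platelet genes 0 were called by edgeR, DESeq2 or limma (3 at unadjusted p under 0.05 by edgeR).

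DMM and sham differed in opposite directions in the 2 genotypes at 4 weeks. In Oscar-/- joints all 10 genes were higher after DMM, by 0.18 (Slc6a4) to 0.69 (Pf4) in log2 TPM with a median of 0.52, where 24.2% of all genes were higher and their median was -0.15. Ppbp, for example, had 329 TPM after DMM and 209 TPM after sham in Oscar-/- joints, against 303 and 353 TPM in WT joints. In WT joints 8 of 10 were lower after DMM in TPM (median -0.24), with Itga2b and Itgb3 higher by 0.03, and 10 of 10 on the TMM scale (median -0.28). On the TMM scale Itgb3 lay within counting error (-0.03, counting error 0.04). Of all genes 59.0% were higher in WT joints in TPM (median 0.05) and 48.9% on the TMM scale. At 2 weeks 6 of 10 were higher after DMM in Oscar-/- (median 0.16) and 3 of 10 in WT (median -0.21). Of all genes 43.7% were higher in Oscar-/- (median -0.03) and 85.7% in WT (median 0.35). On the TMM scale 7 of 10 were higher in Oscar-/- (median 0.12) and 3 of 10 in WT (median -0.45) at 2 weeks. The counting error of Slc6a4, Tubb1 and Gp1ba at 2 weeks was 0.26 to 0.62 on the log2 scale. The Oscar-/- sham library was the lowest of 4 weeks for 10 of 10 genes, and WT sham the highest for 8 of 10, WT DMM for Itga2b and Itgb3. The shares of all genes with these extremes were not computed, and nothing is read from the counts.

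**Figure D5:**
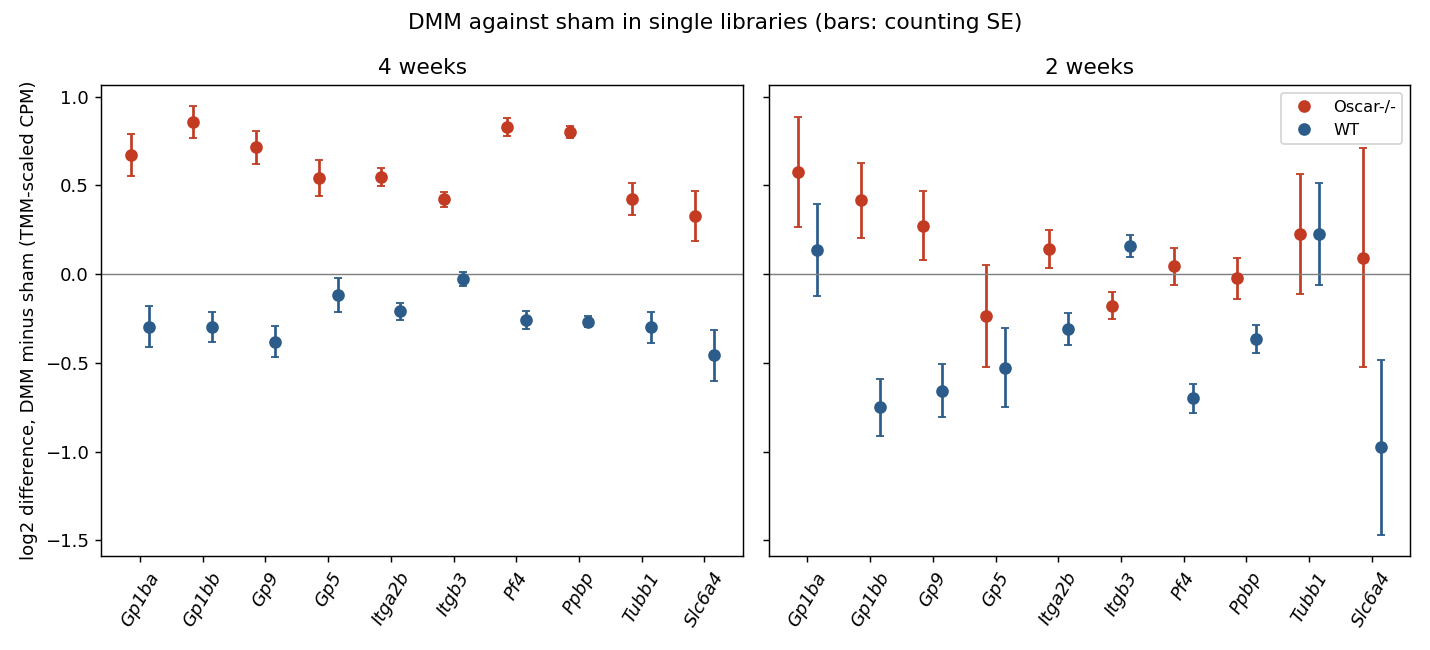
Log2 difference of DMM minus sham for each gene on the TMM scale, for Oscar-/- (red) and WT (blue), each point 1 library against 1 with the error from counting alone. At 4 weeks every Oscar-/- point is above 0 and every WT point below it, and at 2 weeks the genes are mixed.

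In the fit with week, genotype, surgery and their interaction, the DMM response of Oscar-/- minus that of WT was positive for 10 of 10 genes. Gp1bb had 1.2 (SE 0.22), Gp9 1.06 (SE 0.19), Pf4 0.99 (SE 0.24) and Slc6a4 0.88 (SE 0.28), and Itgb3 was the lowest at 0.09 (SE 0.18). The median was 0.82, against -0.01 for all genes, and 4 of 10 were called higher by edgeR (Gp1bb, Gp9, Itga2b and Pf4), beside 1.41% of all genes higher and 3.83% lower, and nothing is read from that count. DESeq2 called 3 and limma on log2(TPM + 1) 1, where the median of the 10 was 0.38, that of all genes -0.26 and the estimate of Itgb3 -0.21. Without WT DMM at 2 weeks, Oscar-/- sham at 2 weeks, WT DMM at 4 weeks, Oscar-/- sham at 4 weeks or Oscar-/- DMM at 4 weeks 0 of 10 were called, and without WT sham at 4 weeks 6 were. In that last setting 7.69% of all genes were called higher and 8.08% lower, and nothing is read from the 6.

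For this difference of responses the 40 other platelet genes had a median of 0.26. An unadjusted p under 0.05 in edgeR was found for 15 of them, beside 3029 of all 12538 genes. Of the 40, 4 had a higher DMM response in Oscar-/- and 0 a lower one, beside 1.41% and 3.83% of all genes. They were Gp6 (1.2, SE 0.29, edgeR adjusted p = 0.0406), F2rl2, a thrombin-binding receptor (1.07, SE 0.27, adjusted p = 0.0461), Treml1 (1.04, SE 0.26, adjusted p = 0.0448) and Nfe2 (0.52, SE 0.13, adjusted p = 0.0403). Over the other settings and left-out libraries the adjusted p ran from 0.000384 to 0.633 for Gp6, from 9.45e-05 to 0.306 for F2rl2, from 0.000128 to 0.326 for Treml1 and from 0.00351 to 0.577 for Nfe2. Limma on log2(TPM + 1) called 0, and so did edgeR without any one of the same 5 libraries. Without WT sham at 4 weeks it called 7 higher and 3 lower, beside 7.69% and 8.08% of all genes. With each genotype and week pair of DMM and sham libraries as a block it called 7 higher and 0 lower, F2rl2 no longer among them (adjusted p = 0.0535). Of all 12538 genes 221 were called higher and 506 lower with that block.

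Red cell genes moved with this contrast. Of 11 erythroid genes 3 had a higher DMM response in Oscar-/- (Klf1 and Rhag among them) and the median was 0.61, and at 4 weeks the list summed to 372226 TPM in Oscar-/- DMM and 266678 TPM in Oscar-/- sham, against 311946 TPM in WT DMM and 298681 TPM in WT sham. For the neutrophil list 0 of 10 passed in edgeR (3 unadjusted, beside 3029 of all 12538 genes, and 0 in DESeq2 and limma), with a median of 0.25. Endothelial genes went the other way, with 5 of 8 lower by edgeR and a median of -0.56, though DESeq2 and limma called 1 each, and medians of chondrocyte and osteoclast genes were -0.78 and -0.66 with 1 gene lower in each list. The part of red cell or marrow content in the values of the 10 genes was not tested.

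Across the 8 libraries the 10 genes kept close to each other. Pearson's r of log2(TPM + 1) over 8 libraries was 0.957 (Itgb3 and Pf4) to 0.999 (Gp1bb and Gp9) in the 45 pairs, with a median of 0.988, most of which is the distance between weeks. For the deviations from the week means it was 0.215 (Itgb3 and Slc6a4) to 0.981 (Gp1bb and Gp9), with a median of 0.678. Itgb3 had the lowest r with the mean of the 10 within weeks, 0.652, and Gp9 the highest, 0.956. These points share libraries and scaling, and are given with no test.

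The genes most like the mean of the 10 over the 8 libraries were Mpig6b (r = 0.999), Gp6 (0.998), Slamf1 (0.995), Treml1 (0.994), F2rl2 (0.994), Ly6g6f (0.992), Nrgn (0.992), Pls1 (0.992), Rbpms2 (0.992) and P2rx1 (0.991). Mpig6b, an inhibitory receptor of megakaryocytes and platelets, had 5.06 to 9.34 TPM at 4 weeks, against 0.29 to 0.75 TPM at 2 weeks. Nrgn, a calmodulin-binding protein best known from neurons, had 14.1 to 22.3 TPM at 4 weeks, against 5.33 to 6.58 TPM at 2 weeks. Gp6, Treml1, F2rl2 and P2rx1 were in the list of 40, and the other 6 were not. Within weeks Mpig6b kept an r of 0.987, and 4 of the 10 were still among the 10 most alike.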

How the data were processed

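RNA of articular cartilage was sequenced on poly(A) libraries made with a stranded kit. Reads were aligned with STAR 2.6.0a and counted with RSEM 1.2.17 (FastQC 0.11.8 for quality), as noted by the submitters. Those notes list a human build, whereas the identifiers are mouse and the study's methods give GRCm38. For each library the authors deposited RSEM expected counts and TPM for 52636 genes, of which 52403 identifiers matched GENCODE M21; the FPKM values were not used. Each deposited table held 1 sample, and 0 columns belonged to others.

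The 10 genes and all lists were chosen with earlier results of these data known. Expected counts were rounded and fitted with edgeR 4.0.16 (quasi-likelihood, TMM) in R 4.3.3 over 12538 protein-coding genes above 1 TPM in at least 1 library. The terms were week, surgery and genotype (4 residual degrees of freedom) or these with the genotype by surgery interaction (3), and adjusted p under 0.05 was called. DESeq2 1.42.0, limma 3.58.1 on log2(TPM + 1) or log2(TPM + 0.1) (which understate the change of low genes), other scalings, no filter and each library left out were alternatives, as was a block for each genotype and week pair, chosen after seeing the data. TPM are reads per transcript length scaled to a fixed total. TMM, a trimmed mean of log ratios, centres most genes at no change. The scripts were tested on simulated data. Counting errors cover counting alone.

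Among the 40 other platelet genes, up to 6 of lowest p per fit and direction were named, with Vwf, Gata1, Nfe2 and Fli1, and the 10 genes of highest r; the others named were chosen after their values were seen. Single values of 2 listed genes are not reported here. Promoter sequences are those of RefSeq on GRCm38.p6 for 9 of the 10 genes.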

Additional observations from a re-analysis of the deposited data

Results flagged for a closer look

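Among the 4 libraries of 4 weeks, the Oscar-/- sham value of Itga2b (45.2 TPM) stood far below the other values. On the log2 scale of TPM the gap to the nearest was 0.88 of the whole range (0.882, above Dixon's critical value for 4 values). On the TMM scale the gap was a smaller part of the range, below that critical value. The log2 values there were 6.41 in Oscar-/- sham, 6.86 in WT DMM, 6.95 in Oscar-/- DMM and 7.06 in WT sham. The 4 libraries differ in genotype and surgery, and chance marks about 1 in 20 groups. The gene was chosen with its differences known, so the mark is a description.

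The DMM response differed between Oscar-/- and WT, by edgeR's interaction term, for Gp6 (1.2 on the log2 scale), F2rl2 (1.07), Treml1 (1.04) and Nfe2 (0.52). These calls were not stable. Limma on log2(TPM + 1) made none of them, nor did edgeR without any one of 5 libraries. For 5 of the 10 genes both weeks had a higher level after DMM in Oscar-/- and a lower level in WT on the TMM scale, and the mean difference of the responses was 1.16 for Gp1bb, 1.01 for Gp9, 0.60 for Itga2b, 0.92 for Pf4 and 0.93 for Slc6a4. The share of all genes with this pattern was not computed, so nothing is read from the 5. This difference between single libraries was not tested, and the calls of the interaction term on these genes, chosen with such differences known, are a description. Slc6a4 rests on 10 to 25 counts at 2 weeks. In Oscar-/- at 2 weeks the TMM differences of Pf4 (0.04, counting error 0.11) and Slc6a4 (0.09, counting error 0.62) lay within counting error. In TPM the directions did not all hold. Slc6a4 was lower after DMM in Oscar-/- at 2 weeks (0.27 against 0.32 TPM), and Itga2b higher in WT at 4 weeks (67.1 against 65.9 TPM).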

How the results depend on the processing

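The week difference kept its direction for all 10 genes under every alternative run, with a median of 2.14 to 2.48 when 1 library was left out, and 21 to 29 of the 40 other platelet genes rose, with 0 falling. The genotype median was -0.49 to -0.08 and the surgery median -0.23 to 0.14 with 1 library left out, with 0 of the 40 genes called in either direction. The interaction was less stable. Its median over the 10 genes was 0.52 to 1.01 with 1 library left out, 0.38 with limma on log2(TPM + 1), 0.42 on log2(TPM + 0.1) and 0.44 in the 2-week libraries alone. Of the 40 genes 4 had a higher response in Oscar-/-, against 0 with limma, 12 with no filter, and 0 to 7 with 1 library left out, when 0 to 3 were lower. The 7 higher and 3 lower came without WT sham at 4 weeks, where 7.69% of all genes were called higher and 8.08% lower. Scaling by total counts moved the split over all genes to 1141 higher and 73 lower by week, against 700 and 295, and to 21 and 896 for the interaction, against 177 and 480. The cause of these changes was not tested. The labels give no replicate numbers. With each genotype and week pair of DMM and sham libraries as a replicate block, an alternative chosen after seeing the data, the surgery median was 0.05 with 0 of the 40 genes called in either direction. The interaction median was 0.81 with 7 of the 40 higher and 0 lower. Slc6a4, at 10 to 25 counts in the 2-week libraries, is where depth limits precision most.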
